A study of Homo sapiens with 4 samples.

Results

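The 10 genes described here encode enzymes that write or remove DNA methylation and enzymes that place repressive marks on histones, together with close partners of both. They are the DNA methyltransferases DNMT1, DNMT3A and DNMT3B, the DNMT1 recruiter UHRF1, the methylcytosine dioxygenases TET1, TET2 and TET3, the PRC2 subunits EZH2 and SUZ12, and the H3K9 methyltransferase SETDB1. They were taken by symbol from a table of 16717 genes, and each symbol was found once. RNA-Seq was performed in Cal-62 cells, a line established from an anaplastic thyroid carcinoma. In 2 libraries the cells were treated with niraparib, an inhibitor of PARP1 and PARP2, and in 2 libraries with DMSO, the vehicle. No other agent or genetic change is named for either group, the dose and duration of treatment behind the RNA-Seq are not given in the sources used here, and no source says whether replicates came from separate cultures. The p-values therefore measure only the spread between these 4 libraries, which may be technical. The values are TPM, in which transcripts are scaled for their length and to a fixed library total. They hold no read counts, and the depth is unknown.

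Cytosine methylation at CpG sites has to be copied each time DNA is replicated. UHRF1 binds the hemimethylated DNA behind the replication fork and ubiquitinates histone H3, and this recruits DNMT1, which methylates the new strand. DNMT3A and DNMT3B set new methylation, and the TET enzymes oxidise 5-methylcytosine as a step towards its removal. PRC2 methylates lysine 27 of histone H3 through its catalytic subunit EZH2, for which SUZ12 is the scaffold, and SETDB1 methylates lysine 9 of histone H3, above all at silenced repeats. Genes of this machinery that act at replication, UHRF1 and EZH2 among them, are known as E2F targets of dividing cells.

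Of the 10 genes, UHRF1 and SUZ12 fell with niraparib, none rose in limma's test (1, DNMT3A, at an unadjusted p of 0.0386), 7 did not pass the test, and TET1 was too low to be tested. DNMT1, the partner that UHRF1 recruits, was nearly level, and so was EZH2, the catalytic partner of SUZ12. The test was limma on log2(TPM + 1) across the 13377 genes that reached a TPM of 1 in at least 2 libraries, with p adjusted over all of them by Benjamini-Hochberg and a threshold of 0.05. Across these genes 11.7% fell and 20.8% rose, so that 32.4% were called in either direction. A further 9038 genes did not pass. The share of calls that were higher was 64.1%, against 50.5% after scaling by the median of ratios and 45.2% from GC-adjusted and centred values, which are described with the GC content. Cal-62 kept PAX8, a factor of the thyroid lineage, at 207 and 196 TPM with niraparib and at 189 and 191 TPM with DMSO. FOXE1, another such factor, had 4.61 and 3.63 TPM with niraparib, against 1.95 and 2.21 TPM with DMSO, and rose by 0.73 on the log2 scale (limma adjusted p = 0.0311), but was not called from GC-adjusted values (0.47, adjusted p = 0.0772). SLC26A4, DUOX2 and DIO1, genes of the differentiated thyrocyte, lay between 0.02 and 0.43 TPM in every library. TG, TSHR, NKX2-1 and SLC5A5 had no entry and so were not analysed here.

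In order of level, DNMT1 led the 10 genes at 106 ± 2.92 TPM with niraparib and 100 ± 0.827 TPM with DMSO (SD, n = 2 each). UHRF1, EZH2 and SUZ12 followed in both groups. SETDB1 and DNMT3A overlapped with each other in the niraparib libraries and did not in the DMSO libraries, where SETDB1 was the higher. TET3 came next, then DNMT3B, then TET2, whose range touched that of DNMT3B in the DMSO libraries. TET1 was the lowest, at 0.09 and 0.06 TPM with niraparib and 0.07 and 0.08 TPM with DMSO. In the niraparib libraries 92.1% of all genes in the table lay below DNMT1 and 1.99% below TET1. The set thus runs over a wide range, and the precision of the lowest genes is limited by the 2 decimals of the table.

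**Figure D1:**
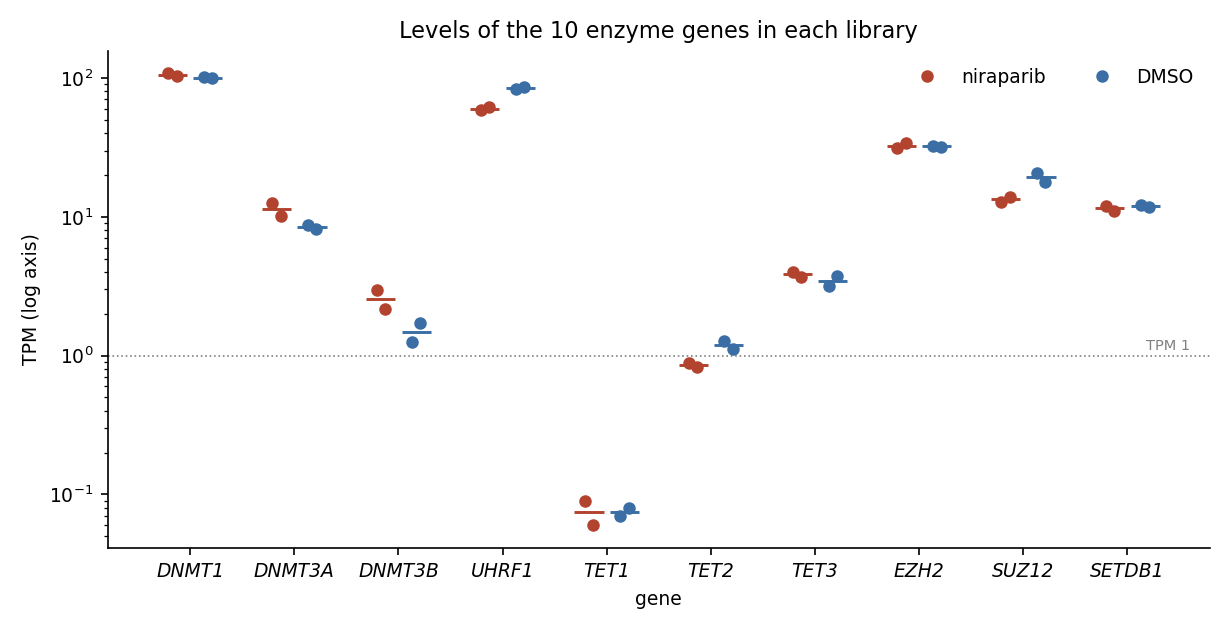
TPM of each of the 10 genes in every library, on a log axis, with niraparib left of DMSO, points for single libraries and short lines for the means. The niraparib points of UHRF1 and SUZ12 lie below the DMSO points, those of DNMT3A and DNMT3B lie above them, and TET1 lies far below the dotted line at a TPM of 1.

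UHRF1 (chromosome 19 of GRCh37, 4903092 to 4962165, plus strand) had 58.72 and 61.3 TPM with niraparib, against 83.96 and 85.75 TPM with DMSO. Both niraparib libraries lay below both DMSO libraries, as they did for 29% of all genes tested. The gap was many times the spread within a group. Its mean was 60.0 ± 1.82 TPM with niraparib and 84.9 ± 1.27 TPM with DMSO (SD, n = 2 each), 0.707 times the DMSO level. The log2 fold change was -0.49, with a standard error of 0.057 and a 95% interval of -0.64 to -0.35 (limma adjusted p = 0.00501). The call held by adjusted p under 15 alternatives (0.00233 to 0.0346), and was lost where a change of at least 1.5-fold was also required. Of the genes tested, 7.46% had a lower log2 fold change.

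DNMT1 (chromosome 19, 10244018 to 10341962, minus strand) had 107.98 and 103.85 TPM with niraparib, against 100.85 and 99.68 TPM with DMSO. The niraparib libraries lay above the DMSO libraries by a small margin. Its log2 fold change, 0.078, was not past the threshold (standard error 0.051, limma adjusted p = 0.282), and its 95% interval corresponds to 0.966 to 1.15 times the DMSO level. A fall of the size seen for UHRF1 lies outside that interval. Within each library, UHRF1 was at 0.544 and 0.59 times the level of DNMT1 with niraparib, against 0.833 and 0.86 times with DMSO. A ratio within a library does not change with scaling. It was 0.669 times as high with niraparib, and an exact two-sided permutation test of 2 against 2 libraries cannot go below p = 0.33.

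The genes that copy DNA methylation are linked to S phase, in which UHRF1 is normally expressed most. The sum of 42 S phase genes, UHRF1 left out, was 2282 and 2341 TPM with niraparib, against 2872 and 2866 TPM with DMSO. Of these 42 genes 19 fell (45.2%, beside 11.7% of all genes), 1 rose (2.38%, beside 20.8%) and 22 did not pass. Their median log2 fold change was -0.29, against 0.072 for all genes tested. From GC-adjusted values 17 fell and 3 rose, and with a 1.5-fold minimum 7 fell and 0 rose. Fewer than the 19 fell without niraparib replicate 1, DMSO replicate 1 or DMSO replicate 2. PCNA, the sliding clamp of DNA polymerases, fell by 0.78 on the log2 scale and MCM6, a subunit of the replicative helicase, by 0.96 (limma adjusted p = 0.00142 and 0.00242). UHRF1 was within their range, with 13 of the 42 genes lower and 29 higher. DNMT1 stood near their upper end, with 37 lower and 5 higher, and EZH2 likewise, with 35 lower and 7 higher. The part of S phase in the fall of UHRF1 was not tested, and fewer cells in S phase cannot be told apart from less UHRF1 RNA per cell in bulk samples.

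The promoters of the 2 genes that fell are shown with those of their partners that did not pass the test, to set out where E2F sequence stands in each. The 250 bases before the annotated start were searched on both strands for TTTCCCGC, TTTCGCGC, TTTGCCGC and TTTGGCGC, which are forms of the E2F motif, and for CCAAT. Matches of both did not overlap in the windows shown. The sequences are those of RefSeq on GRCh38.p14, and capitals mark E2F and CCAAT letters on either strand. All 10 genes had a window, and several had more than 1 annotated start. The windows lie at chr19:4909251-4909500 (plus strand, UHRF1), chr19:10194954-10195203 (minus strand, DNMT1), chr17:31936757-31937006 (plus strand, SUZ12) and chr7:148884292-148884541 (minus strand, EZH2).
UHRF1: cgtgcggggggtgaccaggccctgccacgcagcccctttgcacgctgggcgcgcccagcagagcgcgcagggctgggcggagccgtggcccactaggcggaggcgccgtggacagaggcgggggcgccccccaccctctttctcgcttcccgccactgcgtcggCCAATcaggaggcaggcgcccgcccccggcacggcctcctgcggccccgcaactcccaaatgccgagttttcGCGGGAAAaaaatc
DNMT1: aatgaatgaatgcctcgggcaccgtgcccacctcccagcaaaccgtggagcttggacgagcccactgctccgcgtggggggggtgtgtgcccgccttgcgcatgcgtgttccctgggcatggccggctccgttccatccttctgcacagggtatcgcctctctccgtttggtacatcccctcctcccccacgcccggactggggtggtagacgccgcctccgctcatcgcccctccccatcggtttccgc
SUZ12: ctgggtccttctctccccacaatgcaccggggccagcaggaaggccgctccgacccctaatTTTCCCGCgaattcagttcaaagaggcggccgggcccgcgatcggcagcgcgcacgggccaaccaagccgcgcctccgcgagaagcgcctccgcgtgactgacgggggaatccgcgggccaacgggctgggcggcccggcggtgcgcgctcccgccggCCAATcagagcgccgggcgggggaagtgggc
EZH2: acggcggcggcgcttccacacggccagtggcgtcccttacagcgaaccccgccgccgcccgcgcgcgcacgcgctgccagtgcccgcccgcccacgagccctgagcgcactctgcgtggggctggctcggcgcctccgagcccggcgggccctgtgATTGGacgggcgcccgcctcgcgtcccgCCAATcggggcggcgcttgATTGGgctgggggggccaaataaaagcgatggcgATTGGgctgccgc

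UHRF1 carried E2F letters in 2 of its 3 windows, as GCGGGAAA beginning 14 bases before the start shown and as TTTCGCGC beginning 160 bases before a start further downstream. SUZ12 carried TTTCCCGC beginning 189 bases before its start. None of the windows of the other 8 genes held these letters, while the EZH2 window shown held 4 CCAAT boxes. Of all 27305 genes with a window 3.4% had E2F letters, and CCAAT was found in 37%. Among the 9865 tested genes with a window the share with E2F letters was 5.96%, with 7.25% of the 1242 genes that fell, 5.11% of the 2095 that rose and 45.2% of 31 S phase genes. The motif was searched with the results known, a match is no binding site, and missing letters say nothing about E2F at these genes. CpG sites numbered 28 in the UHRF1 window shown, 34 in that of SUZ12, 38 in that of EZH2 and 21 in that of DNMT1. The median over 35116 windows was 11. The DNMT3B window held 3, and whether it lies at the main start of that gene was not checked.

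The genes of new methylation were somewhat higher with niraparib without passing the test. DNMT3A (chromosome 2, 25450724 to 25565459, minus strand) had 12.5 and 10.12 TPM with niraparib, against 8.77 and 8.18 TPM with DMSO. The groups did not overlap, but the niraparib libraries differed from each other by more than the nearer of them did from DMSO. The log2 fold change was 0.37 (95% interval 0.028 to 0.72, limma adjusted p = 0.0924), or 0.23 without niraparib replicate 1.

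DNMT3B (chromosome 20, 31350191 to 31397165, plus strand) had 2.95 and 2.16 TPM with niraparib, against 1.26 and 1.72 TPM with DMSO. In each group the higher library was 1.37 times the lower. The log2 fold change on the log2(TPM + 1) scale, which understates changes of low genes, was 0.51 (95% interval -0.011 to 1.03, limma adjusted p = 0.116), and 0.74 with a pseudocount of 0.1 (adjusted p = 0.122). All 3 DNA methyltransferases were higher in both niraparib libraries than in both DMSO libraries, as were 41.9% of all genes tested. DNMT1 made up 87.5% and 89.4% of their summed TPM with niraparib, against 91.0% and 91.0% with DMSO. DNMT3A took 10.1% and 8.71% with niraparib, against 7.91% and 7.46% with DMSO.

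Among the enzymes that oxidise methylcytosine, TET3 was the most abundant in Cal-62 cells. TET3 (chromosome 2, 74212037 to 74335303, plus strand) had 3.98 and 3.71 TPM with niraparib, against 3.17 and 3.76 TPM with DMSO. The groups overlapped, and a log2 fold change of 0.12 was not past the threshold (95% interval -0.27 to 0.51, limma adjusted p = 0.581). TET2 (chromosome 4, 106067032 to 106200973, plus strand) had 0.89 and 0.83 TPM with niraparib, against 1.27 and 1.12 TPM with DMSO. TET2 reached a TPM of 1 in the DMSO libraries only, and so entered the test through the group in which it was higher. Its mean with niraparib was 0.72 times that with DMSO. On the log2(TPM + 1) scale, which understates changes of low genes, its log2 fold change was -0.24 (95% interval -0.70 to 0.23, limma adjusted p = 0.361). TET1 (chromosome 10, 70320094 to 70454244, plus strand) stayed under the minimum in every library and was not tested.

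TET3 held 80.2% and 80.7% of the summed TET level with niraparib, against 70.3% and 75.8% with DMSO, while TET2 held 17.9% and 18.0% with niraparib, against 28.2% and 22.6% with DMSO. The sum of the 3 TETs was 4.96 and 4.6 TPM with niraparib, against 4.51 and 4.96 TPM with DMSO, so the groups overlapped. It amounted to 0.0402 and 0.0396 times the sum of the 3 DNA methyltransferases with niraparib, against 0.0407 and 0.0453 times with DMSO.

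In PRC2, SUZ12 and the partner EED fell while EZH2 did not pass the test, and the difference between them was not tested. EZH2 (chromosome 7, 148504349 to 148581413, minus strand) had 31.16 and 33.86 TPM with niraparib, against 32.55 and 32.04 TPM with DMSO. The DMSO libraries lay between the niraparib libraries. The log2 fold change was 0.0080 (95% interval -0.19 to 0.20, limma adjusted p = 0.945), and its sign turned with the scaling, at -0.070 after scaling by the median of ratios.

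SUZ12 (chromosome 17, 30264026 to 30328057, plus strand) had 12.87 and 13.91 TPM with niraparib, against 20.82 and 17.76 TPM with DMSO. The niraparib libraries lay below the DMSO libraries, as for 29% of all genes tested, and the DMSO libraries differed from each other by 1.17 times. It fell to 13.4 ± 0.735 TPM with niraparib, against 19.3 ± 2.16 TPM with DMSO (SD, n = 2 each). On the log2 scale the difference was -0.49, with a standard error of 0.11 and a 95% interval of -0.78 to -0.21 (limma adjusted p = 0.0273). Leaving out niraparib replicate 1 gave -0.44 (adjusted p = 0.109), leaving out niraparib replicate 2 gave -0.55 (adjusted p = 0.0648) and leaving out DMSO replicate 1 gave -0.38 (adjusted p = 0.127), so that the call was lost in each case. From GC-adjusted values it was lost too (-0.20, adjusted p = 0.207).

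EED, the subunit of PRC2 that reads methylated lysine 27, had 15.73 and 15.88 TPM with niraparib, against 24.43 and 24.19 TPM with DMSO. It fell by 0.59 on the log2 scale (limma adjusted p = 0.0072), a call that held in each removal of a library and was lost from GC-adjusted values (-0.14, adjusted p = 0.245). RBBP4, a histone-binding subunit, fell by 0.33 on the log2 scale (limma adjusted p = 0.0203). It was no longer called without niraparib replicate 1 (-0.27, adjusted p = 0.076), DMSO replicate 1 (-0.29, adjusted p = 0.0955) or DMSO replicate 2 (-0.37, adjusted p = 0.0542) and from GC-adjusted values (-0.14, adjusted p = 0.114). PHF1, an accessory subunit that binds methylated lysine 36 of histone H3, had 55.13 and 52.23 TPM with niraparib, against 29.03 and 33.93 TPM with DMSO, and rose by 0.76 on the log2 scale (limma adjusted p = 0.00594). Its call held in every alternative run. Of the 12 PRC2 partners tested, 1 rose (8.33%, beside 20.8% of all genes), 2 fell (16.7%, beside 11.7%) and 9 did not pass. Their median log2 fold change was -0.25. Fewer than the 2 fell without niraparib replicate 1, DMSO replicate 1 or DMSO replicate 2. From GC-adjusted values neither of the 2 was called, while 1 other partner fell and 2 rose. After scaling by the median of ratios 4 fell.

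EZH2 stood at 2.42 and 2.43 times the level of SUZ12 with niraparib, against 1.56 and 1.8 times with DMSO. EED stood at 0.505 and 0.469 times the level of EZH2 with niraparib, against 0.751 and 0.755 times with DMSO, a ratio chosen after its values were seen. EZH1, the paralog of EZH2 in less proliferative cells, had 8.84 and 9.48 TPM with niraparib, against 10.52 and 8.69 TPM with DMSO, and did not pass the test (log2 fold change -0.057, limma adjusted p = 0.765). The ratio of EZH2 to EZH1 overlapped between the groups, at 3.52 and 3.57 with niraparib and 3.09 and 3.69 with DMSO. Ratios to EZH2 carry the difference in GC content between the genes.

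SETDB1 (chromosome 1, 150898739 to 150937220, plus strand) had 12.04 and 10.96 TPM with niraparib, against 12.16 and 11.67 TPM with DMSO. The groups overlapped, and a log2 fold change of -0.048 was not past the threshold (95% interval -0.31 to 0.22, limma adjusted p = 0.752). The interval spans 0.805 to 1.16 times the DMSO level.

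**Figure D2:**
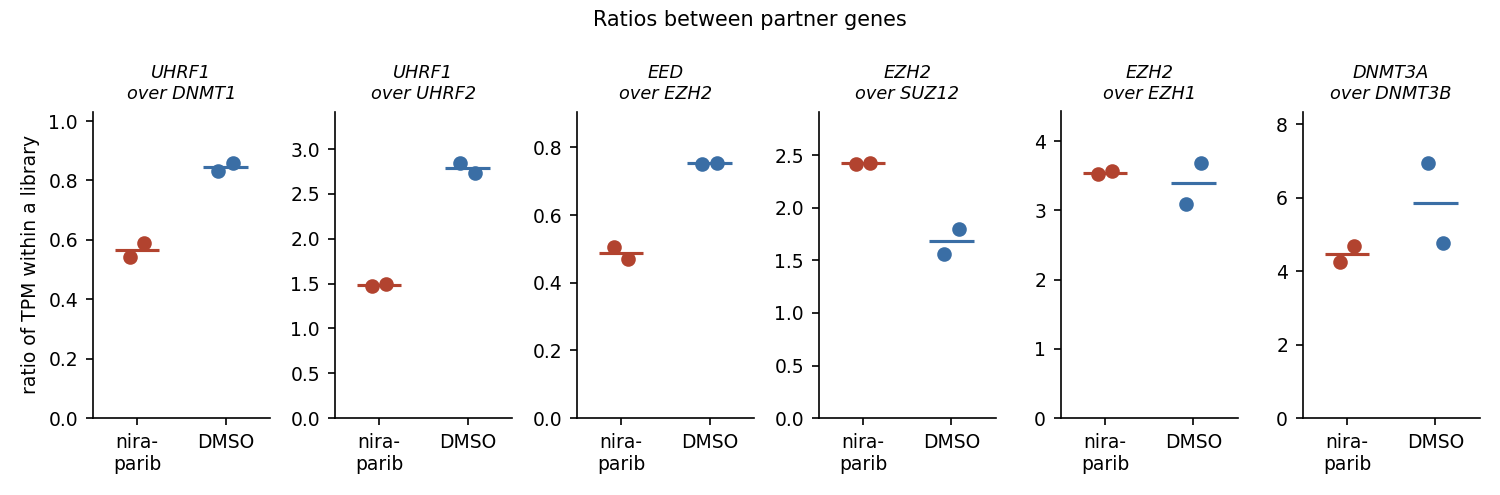
Ratios of TPM between partner genes within each library, with niraparib left of DMSO, points for single libraries and short lines for the means, on axes that start at 0. UHRF1 over DNMT1 lies at 0.544 and 0.59 with niraparib and at 0.833 and 0.86 with DMSO, EZH2 over SUZ12 is higher with niraparib, and EZH2 over EZH1 overlaps.

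The changes have to be read beside a trend over all genes. The higher the GC content of a gene's longest annotated transcript, the higher its log2 fold change tended to be (Spearman's rho 0.51 across 12517 genes, which share the 4 libraries). When genes were cut into 10 GC bins of equal size, the bin that holds SUZ12 had a median log2 fold change of -0.27 and the bin that holds UHRF1 had 0.20. The SUZ12 transcript has 38.2% GC and that of UHRF1 54.5%. UHRF1 thus lay far below genes of its GC content, while SUZ12 lay in the direction of its own. After the trend was subtracted from each library, UHRF1 had a log2 fold change of -0.65 (95% interval -0.79 to -0.50, limma adjusted p = 0.00362) and was the only member called, beside 10.3% of genes called lower and 15.9% called higher from these values. EZH2, with 40.8% GC, had 0.22 (95% interval 0.054 to 0.38, adjusted p = 0.0623) and DNMT1, with 55.2% GC, had -0.090 (95% interval -0.20 to 0.023, adjusted p = 0.192). DNMT3A had 0.23 and DNMT3B 0.36 (adjusted p = 0.218 and 0.212). The source of the trend was not tested.

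**Figure D3:**
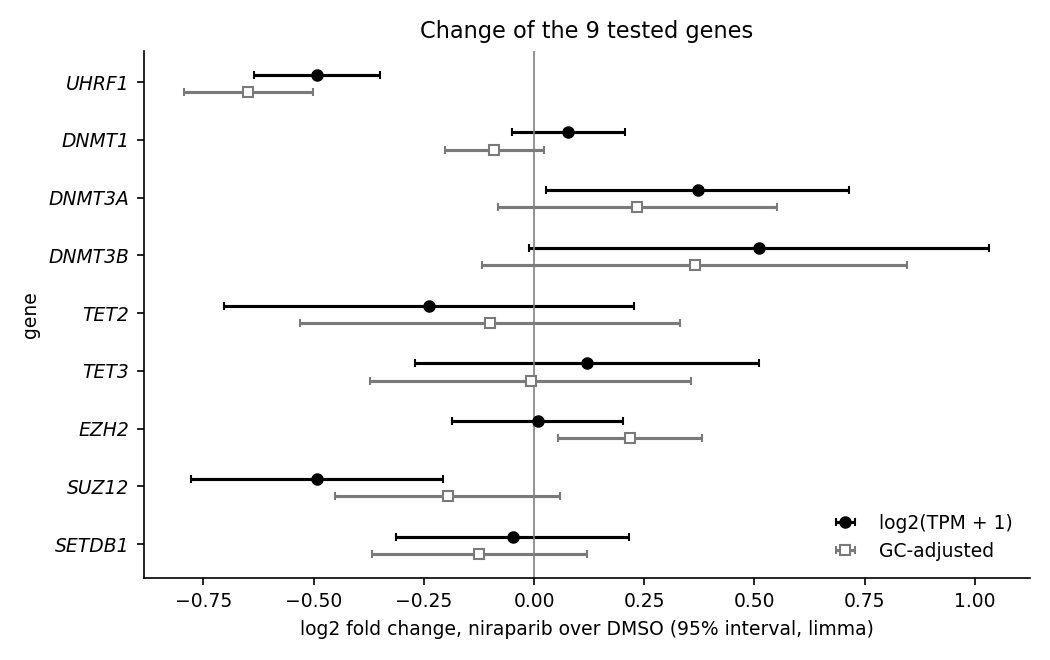
Log2 fold change of niraparib over DMSO for the 9 tested genes with 95% intervals from limma, from log2(TPM + 1) in black circles and from GC-adjusted values in open grey squares. Both intervals of UHRF1 lie below 0, that of SUZ12 reaches 0 after the adjustment, and that of DNMT1 spans 0 in both forms.

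**Figure D4:**
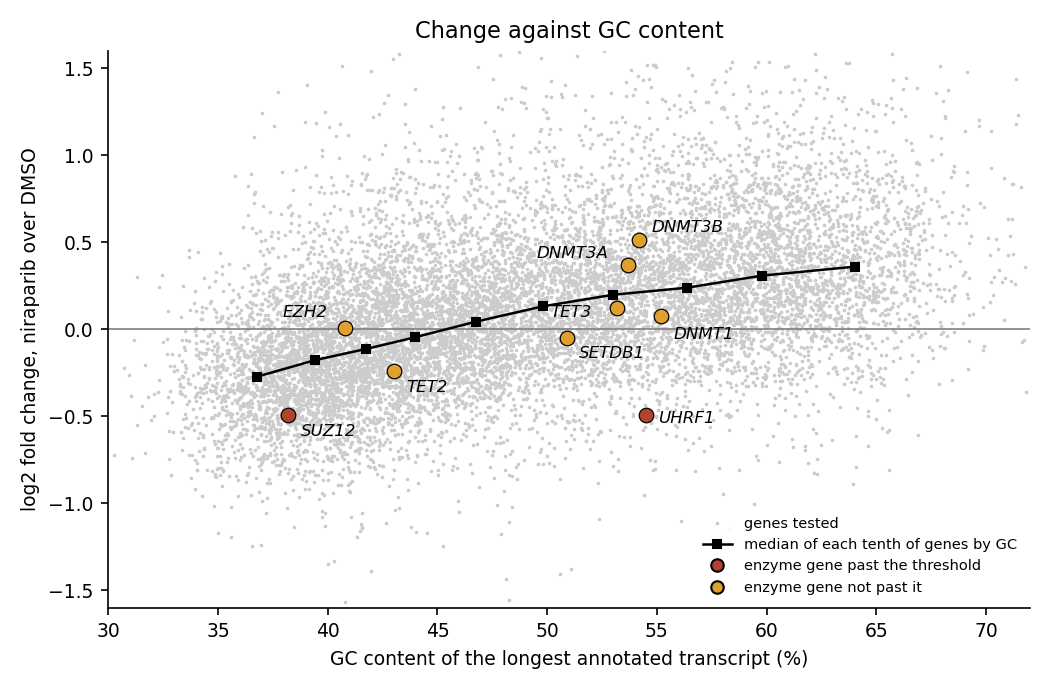
Log2 fold change against the GC content of the longest annotated transcript for the genes tested (grey, genes beyond the axes not drawn), the medians of 10 GC bins (squares) and the 9 tested members (large circles, red where past the threshold and orange otherwise). UHRF1 lies at -0.49 where the median is 0.20, and SUZ12 at -0.49 where the median is -0.27.

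Cofactors of DNA methylation were called in both directions. USP7, a deubiquitinase that binds and stabilises UHRF1 and DNMT1, had 34.79 and 37.36 TPM with niraparib, against 50.59 and 51.7 TPM with DMSO, and fell by 0.49 on the log2 scale (limma adjusted p = 0.00792). CDCA7, the activator of the remodeller HELLS in the methylation of heterochromatin, had 21.33 and 19.62 TPM with niraparib, against 34.72 and 33.52 TPM with DMSO, and fell by 0.71 (limma adjusted p = 0.00506). Both calls held in every alternative run, GC-adjusted values included, except that USP7 was under the 1.5-fold minimum. HELLS itself had 15.35 and 25.81 TPM with niraparib, against 32.31 and 36.15 TPM with DMSO. Its niraparib libraries differed widely, and its log2 fold change of -0.75 was not past the threshold (limma adjusted p = 0.0629), but did without niraparib replicate 2 (-1.11, adjusted p = 0.0216) and after scaling by the median of ratios (-0.83, adjusted p = 0.0472).

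UHRF2, the paralog of UHRF1, had 39.95 and 40.75 TPM with niraparib, against 29.43 and 31.46 TPM with DMSO, and rose by 0.40 on the log2 scale (limma adjusted p = 0.0149). It was no longer called without niraparib replicate 1 (0.41, adjusted p = 0.0594), niraparib replicate 2 (0.38, adjusted p = 0.0563) or DMSO replicate 1 (0.35, adjusted p = 0.0792), and held from GC-adjusted values (0.50, adjusted p = 0.00866). UHRF1 stood at 1.47 and 1.5 times the level of UHRF2 with niraparib, against 2.85 and 2.73 times with DMSO, another ratio chosen after its values were seen. Of the 12 cofactors of DNA methylation tested, 2 fell (16.7%, beside 11.7% of all genes), 1 rose (8.33%, beside 20.8%) and 9 did not pass. CDCA7 and HELLS are also among the 42 S phase genes. The median log2 fold change of the 12 cofactors was -0.073. Without niraparib replicate 2 4 of them fell.

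Of the 10 readers of methylated CpG, 2 rose and none fell in limma's test (1 was lower at an unadjusted p under 0.05), a share of 20.0% higher beside 20.8% of all genes. The 2 were 1 without niraparib replicate 1, DMSO replicate 1 or DMSO replicate 2. The absence of lower readers depended on the processing. After scaling by the median of ratios 1 reader, ZBTB38, fell (-0.322, limma adjusted p = 0.0267). From GC-adjusted values 1 reader rose and another, MBD3, fell (-0.331, limma adjusted p = 0.0245). MBD3 was chosen after its values were seen. ZBTB4, a repressor that binds methylated DNA, had 27.95 and 25.61 TPM with niraparib, against 15.04 and 15.32 TPM with DMSO, and rose by 0.78 (limma adjusted p = 0.00487), a call that held in every alternative run. Of the 12 tested genes around demethylation, 4 rose (33.3%, beside 20.8% of all genes) and 8 did not pass. None fell (0 at an unadjusted p under 0.05), beside 11.7% of all genes. IDH2, which makes 2-oxoglutarate, a substrate of TET enzymes, rose by 0.92 (limma adjusted p = 0.00254). It had 176.88 and 179.06 TPM with niraparib, against 99.57 and 88.13 TPM with DMSO. IDH1 and IDH3A, chosen after their values were seen, did not pass (-0.165 and -0.216, limma adjusted p = 0.398 and 0.152). The supply of 2-oxoglutarate to TET enzymes was not tested. GADD45A, a stress gene linked to demethylation, rose by 0.88 (limma adjusted p = 0.00201). The calls of IDH2 and GADD45A held in every alternative run. Of the 10 genes of methyl donor supply, 2 rose, 2 fell and 6 did not pass, and none rose without niraparib replicate 1, niraparib replicate 2 or DMSO replicate 2. None fell without niraparib replicate 2 or DMSO replicate 1, or without trend and robust priors, and 1 fell without niraparib replicate 1. With all libraries 20.0% of these 10 genes rose and 20.0% fell, beside 20.8% and 11.7% of all genes. MAT2A, which makes S-adenosylmethionine, had 71.24 and 65.7 TPM with niraparib, against 91.91 and 84.93 TPM with DMSO, and fell by 0.36 (limma adjusted p = 0.0179). Leaving out niraparib replicate 2 (-0.31, adjusted p = 0.0643) or DMSO replicate 1 (-0.31, adjusted p = 0.0843) ended this call.

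PRC1, the complex that ubiquitinates histone H2A and reads the mark of PRC2, had 7 higher and 3 lower of 23 subunits, with a median log2 fold change of 0.074. From GC-adjusted values 3 were higher and none lower, and without niraparib replicate 1 the counts were 3 and 0, without DMSO replicate 1 5 and 0, and without DMSO replicate 2 4 and 1. CBX7, a reader of methylated lysine 27, rose by 0.79 on the log2 scale (limma adjusted p = 0.0064). BCORL1, a corepressor of a variant PRC1, rose by 0.72 (limma adjusted p = 0.00834), and both calls held in every alternative run. RING1 and RNF2, catalytic subunits of PRC1 chosen after their values were seen, differed in direction. RING1 had 46.85 and 41.72 TPM with niraparib, against 37.07 and 30.73 TPM with DMSO. RING1 was higher by 0.38 on the log2 scale without being called (limma adjusted p = 0.0563). From GC-adjusted values RING1 was higher by 0.12 (adjusted p = 0.473). RNF2 had 8.53 and 8.62 TPM with niraparib, against 17.01 and 13.09 TPM with DMSO, and fell by 0.73 (limma adjusted p = 0.0186). It was no longer called without niraparib replicate 1 (-0.73, adjusted p = 0.0831), niraparib replicate 2 (-0.74, adjusted p = 0.0677) or DMSO replicate 1 (-0.56, adjusted p = 0.0698) and from GC-adjusted values (-0.37, adjusted p = 0.107).

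Of 21 tested genes of H3K9 methylation and heterochromatin, 6 fell, 2 rose and 13 did not pass, with a median of -0.22. The shares were 28.6% lower and 9.52% higher, beside 11.7% and 20.8% of all genes. None rose without niraparib replicate 1, DMSO replicate 1 or DMSO replicate 2, or after scaling by the median of ratios. The counts of lower genes were 3 without niraparib replicate 1, 2 without DMSO replicate 1, 1 without DMSO replicate 2 and 4 from GC-adjusted values. CBX3, the heterochromatin protein HP1 gamma, had 45.43 and 51.0 TPM with niraparib, against 83.74 and 75.72 TPM with DMSO, and fell by 0.72 on the log2 scale (limma adjusted p = 0.00553), a call that held in every alternative run. TASOR, the scaffold of the HUSH complex that works with SETDB1, had 14.14 and 17 TPM with niraparib, against 24.75 and 23.76 TPM with DMSO. It fell by 0.61 (limma adjusted p = 0.0149), a call lost without DMSO replicate 1 (-0.59, adjusted p = 0.0665) and DMSO replicate 2 (-0.64, adjusted p = 0.0523).

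Of 12 tested demethylases of lysines 27 and 9, 4 rose, none fell (1 was lower at an unadjusted p under 0.05) and 8 did not pass. Without niraparib replicate 1 1 of them rose, and without niraparib replicate 2, DMSO replicate 1 or DMSO replicate 2 none did. After scaling by the median of ratios 3 of the 12 rose and 1 fell, and from GC-adjusted values 1 rose and none fell. KDM6A, which acts on lysine 27 like KDM6B and was chosen after its values were seen, did not pass (0.016, limma adjusted p = 0.924). KDM6B, which removes the mark that EZH2 places, had 10.64 and 20.81 TPM with niraparib, against 4.08 and 6.6 TPM with DMSO. All niraparib values lay above the DMSO values although the libraries of each group differed widely. It rose by 1.36 on the log2 scale (limma adjusted p = 0.0362), or by 0.91 without niraparib replicate 2 (adjusted p = 0.103), 1.07 without DMSO replicate 1 (adjusted p = 0.17) and 1.65 without DMSO replicate 2 (adjusted p = 0.0697), where the call was lost, as it was from GC-adjusted values (1.09, adjusted p = 0.0802).

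Of 18 regulators of the E2F and DREAM complexes 3 rose, 2 fell and 13 did not pass, with a median log2 fold change of 0.021, beside the 20.8% and 11.7% of all genes. Without niraparib replicate 1 none of them fell, without niraparib replicate 2 1 rose and 1 fell, and without DMSO replicate 1 or DMSO replicate 2 1 fell.

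Germline genes that DNA methylation is known to silence, and imprinted genes, were looked at by level only. Total TPM shows neither methylation nor which allele is read, so the state of silencing was not tested. Of 30 such germline genes, 2 had an entry, and both were under a TPM of 1 in every library and not tested. TDRD12 had 0.2 and 0.1 TPM with niraparib, against 0.03 and 0.03 TPM with DMSO, and SOHLH2 had 0.53 and 0.6 TPM with niraparib, against 0.9 and 0.73 TPM with DMSO. Germline genes with no entry were not analysed here. Of 14 tested imprinted genes, 6 rose (42.9%, beside 20.8% of all genes), 1 fell and 7 did not pass. Their median log2 fold change was 0.28. From GC-adjusted values 4 rose and 1 fell, beside 15.9% and 10.3% of all genes. Without trend and robust priors 2 rose, and with a 1.5-fold minimum 1 did. Fewer than the 6 also rose without niraparib replicate 2, DMSO replicate 1 or DMSO replicate 2. None fell without niraparib replicate 1, niraparib replicate 2 or DMSO replicate 1. PHLDA2, an imprinted gene of placental growth, had 185 ± 6.98 TPM with niraparib and 124 ± 1.77 TPM with DMSO (SD, n = 2 each), and rose by 0.58 (limma adjusted p = 0.00289), a call that held in every alternative run except the 1.5-fold minimum. GNAS, which encodes a G protein subunit, rose by 0.22 (limma adjusted p = 0.00513), and was not called without trend and robust priors (adjusted p = 0.0921).

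Markers of other cells also differed between the groups. Of 12 markers of blood, endothelial and neural cells, 5 had an entry, and 3 of the 4 tested rose. They had a sum of 41.7 and 47.1 TPM with niraparib, against 24.95 and 25.6 TPM with DMSO. CD68, a lysosomal protein that many cell lines express, made up 31.28 and 36.27 TPM of it with niraparib, against 20.07 and 19.58 TPM with DMSO. GFAP rose by 0.96 on the log2 scale and CD14 by 0.52 (limma adjusted p = 0.0193 and 0.0481). SNAP25 did not pass (0.61, limma adjusted p = 0.118), and CD14 was not called from GC-adjusted values (0.30, adjusted p = 0.155). PTPRC, CD3E and PECAM1 had no entry and so were not analysed here, and CDH5 lay between 0.18 and 0.41 TPM. Of the 13 mitochondrial mRNAs 11 rose (84.6%, beside 20.8% of all genes). The 13 summed to 91586 and 89101 TPM with niraparib, against 76952 and 76423 TPM with DMSO. The part of these differences in the values of the 10 genes was not tested.

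**Figure D5:**
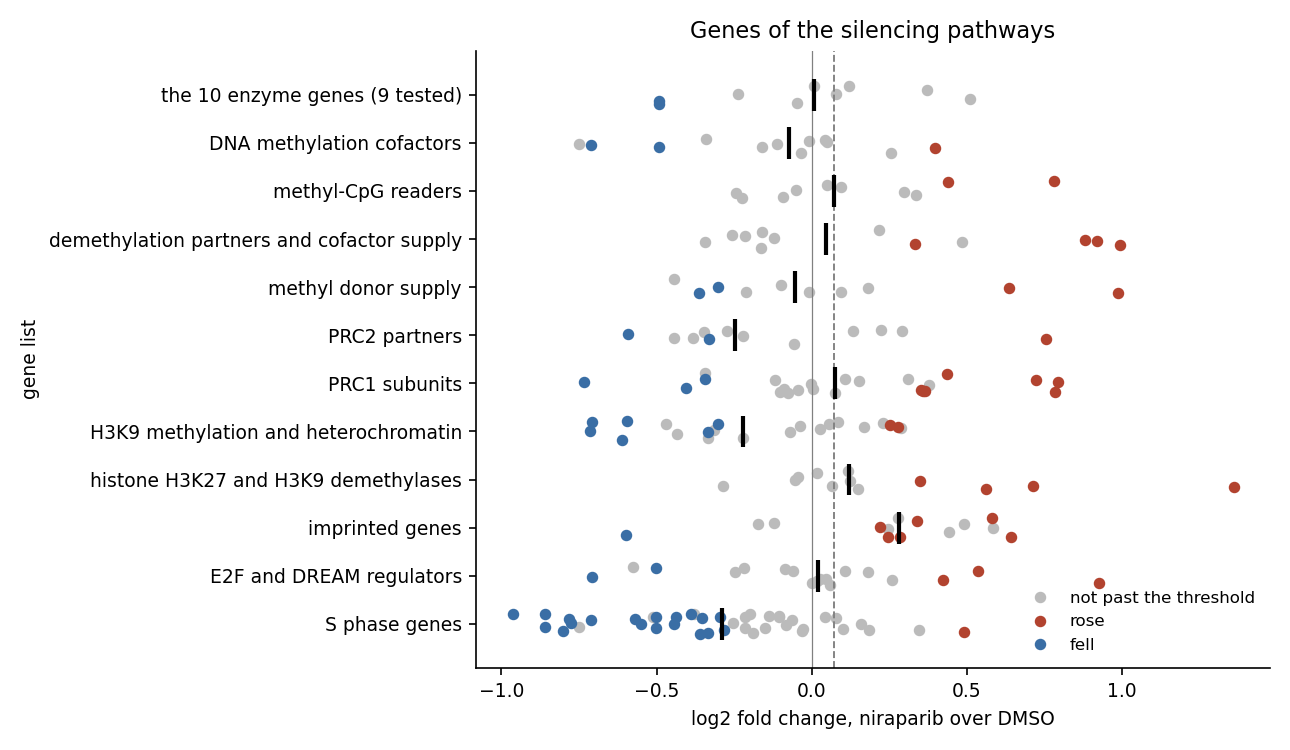
Log2 fold change of niraparib over DMSO for each tested gene (points, red where it rose, blue where it fell, grey where it did not pass the test) of the 10 genes and 11 lists of related genes, with black bars for the medians and a dashed line for the median of all genes tested, 0.072. The S phase genes have a median of -0.29, the imprinted genes of 0.28, and the tested members of 0.0080.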

How the data were processed

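RNA was measured with an mRNA-seq kit in Cal-62 cells, in 2 libraries with niraparib and 2 with DMSO, grouped by the labelled treatment. The deposited values are TPM that the authors computed within each library and rounded to 2 decimals, with column sums between 994264 and 995353. The methods name Trim Galore, STAR and hg19, while GEO's processing notes from the submitters list HISAT2, Trim Galore, mm10 and hg38, and the tool behind the TPM is not given in the sources used here. The depth per library is unknown.

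Genes reaching 1 TPM in 2 or more libraries were fitted with limma 3.58.1 in R 4.3.3 on log2(TPM + 1), with trend and robust priors and with Benjamini-Hochberg adjustment over all 13377 genes. Symbols were matched to GENCODE release 44 on GRCh37 (88.8%) for coordinates and GC content, and to RefSeq windows on GRCh38.p14 for promoters. In the GC adjustment, a loess curve (span 0.5) of each library's deviations from the gene means on GC content was subtracted. A second form also set the median deviation of every library to 0. The other alternatives changed scaling, filter, pseudocount, priors, the replicate block, each library in turn and a 1.5-fold minimum. The procedure was tested on simulated data.

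The members and lists were chosen with earlier results of these data known. The genes named are the members, EZH1, up to 4 genes of each list with the smallest limma p, and markers above a TPM of 1, with exceptions stated where they occur. Some items that the rule would name are not reported here. Lower markers are named to show their level.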

Additional observations from a re-analysis of the deposited data

How the results depend on the processing

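Of 134 member values under alternatives, 116 kept their direction and their side of the threshold. UHRF1 kept its call by adjusted p in 15 alternatives and lost it with a 1.5-fold minimum, and no member rose in any alternative. The number of members that fell was 2, and 1 from GC-adjusted values, from GC-adjusted and centred values and from GC-adjusted values with the replicate block, 0 with a 1.5-fold minimum, and 1 to 2 without 1 library. The 12 reversed values all belong to members that did not pass the test. DNMT1 was at -0.001 after scaling by the median of ratios, -0.09 GC-adjusted, -0.158 when also centred and -0.09 GC-adjusted with the block. TET3 was at -0.007, -0.075 and -0.007 in these 3 GC-adjusted forms. EZH2 was at -0.07 and -0.062 after scaling by the median of ratios and the upper quartile, and at -0.05 without niraparib replicate 2 and -0.003 without DMSO replicate 2, its range without 1 library being -0.05 to 0.066. SETDB1 was at 0.014 without niraparib replicate 2, with a range of -0.111 to 0.014. Of other named genes, MAT2B was at 0.012 GC-adjusted, with and without the block, against -0.301, and EZH1 at 0.068 without DMSO replicate 1, with a range of -0.182 to 0.068. Without 1 library the log2 ratio, niraparib over DMSO, ran from -0.638 to -0.52 for UHRF1 over DNMT1, from 0.428 to 0.635 for EZH2 over SUZ12, from -0.055 to 0.198 for EZH2 over EZH1, from -0.644 to -0.094 for DNMT3A over DNMT3B and from -0.182 to -0.028 for TETs over DNMTs. DNMT3A over DNMT3B was at -0.139 with a pseudocount of 1, against -0.369.

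Across all genes the 2780 higher and 1559 lower calls became 1506 higher from GC-adjusted and centred values, 1645 higher from GC-adjusted values with the block, 1017 lower without trend and robust priors, and 1402 higher and 480 lower with a 1.5-fold minimum. Without 1 library they were 1197 to 1616 higher and 627 to 1159 lower. A lone library left in a group is assumed to vary like the other group's libraries. The replicate block gave 2400 higher and 1339 lower genes, and UHRF1 and SUZ12 stayed called with it (adjusted p = 0.0107 and 0.0422). Same-numbered libraries did not deviate together (correlation -0.0148 across genes), so the numbers were not taken as pairs. TPM without depth gives no counting interval, and values such as those of TET1 are close to the rounding step.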
